A study of Mus musculus with 18 samples.

Results

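The 34 genes described here carry fatty acids into the heart muscle cell and through mitochondrial beta-oxidation. They were taken as a named list of enzymes, carriers and lipases, with gene identifiers paired to symbols by GENCODE M21, and a gene was kept if it had at least 10 counts in 3 or more libraries. All 34 met that rule, and all 34 were among the 15778 genes tested out of 49315 in the tables. Libraries were made from total RNA taken at the mid wall of the left ventricle, from male mice with a 129SVE background, either wild type (WT) or knockout (KO) for MLP, the muscle LIM protein encoded by Csrp3, at 3, 6 and 10 weeks of age. Each of the 6 groups had 3 libraries, 18 in all, and the labels name no treatment. MLP is a protein of the muscle Z-disc, and mice without it are used as a model of dilated cardiomyopathy. The labels do not say how the allele was made, whether each library came from a separate mouse or whether tissue was pooled, so p-values measure only the spread between these libraries, which may be technical.

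The adult heart draws most of its energy from long-chain fatty acids. Lipases release them from lipoproteins or from stored triglyceride, acyl-CoA synthetases activate them, and the carnitine shuttle carries them across the inner mitochondrial membrane. Inside, each turn of the beta-oxidation spiral uses an acyl-CoA dehydrogenase, a hydratase, a hydroxyacyl-CoA dehydrogenase and a thiolase to remove an acetyl-CoA. The electrons pass through the electron transfer flavoprotein to the respiratory chain. This pathway matures after birth, as the heart turns from glucose and lactate to fat.

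Library totals ran from 14980968 to 23001047 counts, and a member had between 49 and 68649 counts in a library. WT and KO below mean the libraries so labelled. Csrp3 itself was not lower in KO, with log2 fold changes of 0.80 at 3 weeks (adjusted p = 0.081), 0.57 at 6 weeks (adjusted p = 0.19) and 1.29 at 10 weeks (adjusted p = 0.0041). Which part of the gene was targeted is not stated by the labels, so a whole-gene count does not check the genotype. Mitochondrially encoded genes took 11.0 to 16.8% of counts in WT and 7.50 to 10.9% in KO, and leaving them out before scaling cost no member its call against WT. The atrial light chain Myl4 stood at 118, 436 and 1145 CPM (counts scaled to library size) in KO at 3 weeks replicate 3, KO at 6 weeks replicate 3 and KO at 10 weeks replicate 1, against at most 23.2 in the other libraries. The adipocyte hormone Adipoq stood at 11.1 and 13.5 CPM in the KO libraries of 6 weeks replicate 3 and 10 weeks replicate 1, and at most 0.892 elsewhere. The part of these tissues in the results was not tested beyond refitting without those 3 libraries.

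Fatty acid genes were lower in KO at every age, and none of the 34 was higher at an adjusted p under 0.05. At 3 weeks 17 members fell, beside 6.68% of all genes tested (8.65% rose). By 6 weeks 27 members had fallen, with 12.8% of all genes lower and 11.0% higher. At 10 weeks 26 members fell, with 14.7% of all genes lower and 14.6% higher. The median log2 fold change of the members was -0.31, -0.65 and -0.56 at 3, 6 and 10 weeks, beside 0.00, 0.00 and -0.03 over all genes tested. The 3 comparisons share no library. Summed over the 34 genes, the level was 15138 ± 530 CPM (SD, n = 3) in WT and 11517 ± 1288 in KO at 3 weeks, 18129 ± 920 and 11157 ± 466 at 6 weeks, and 19649 ± 648 and 13312 ± 347 at 10 weeks. KO thus stood at 76.1, 61.5 and 67.7% of WT, with no KO library reaching the lowest WT library of its age.

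Fold changes are log2 of KO over WT from edgeR's quasi-likelihood fit, each with its standard error (SE), and p-values are adjusted over all 15778 genes by the Benjamini-Hochberg method. CPM values are scaled by the trimmed mean of M-values (TMM). KO values lay wholly below WT values for 19, 28 and 30 members at 3, 6 and 10 weeks, beside 14.9, 22.2 and 21.4% of all genes. In bulk tissue, fewer cardiomyocytes and less RNA per cardiomyocyte cannot be told apart. The summed level of 10 cardiomyocyte markers was 94209 to 108600 CPM in WT and 120056 to 123338 in KO at 3 weeks, 116088 to 129713 and 107026 to 119448 at 6 weeks, and 112433 to 123629 and 128370 to 143082 at 10 weeks. Of those 10 markers, 1, 4 and 2 fell and 3, 1 and 1 rose at the 3 ages, with median log2 fold changes of 0.02, -0.32 and 0.12. Over all genes, 6.68, 12.8 and 14.7% fell and 8.65, 11.0 and 14.6% rose. The sum rests on a few abundant genes. Myh6, Tnnt2 and Actc1 rose at 3 weeks, and Actc1, the cardiac actin, also at 6 and 10 weeks, by 0.59 and 0.81 (adjusted p = 0.004 and 0.00021). Tnni3, cardiac troponin I, fell at 6 and 10 weeks by 1.04 and 0.61 (adjusted p = 1.8e-06 and 0.00055), as did Atp2a2, the calcium pump of the sarcoplasmic reticulum, by 0.63 and 0.41 (adjusted p = 0.00052 and 0.012). The cardiomyocyte markers thus moved in both directions.

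**Figure D1:**
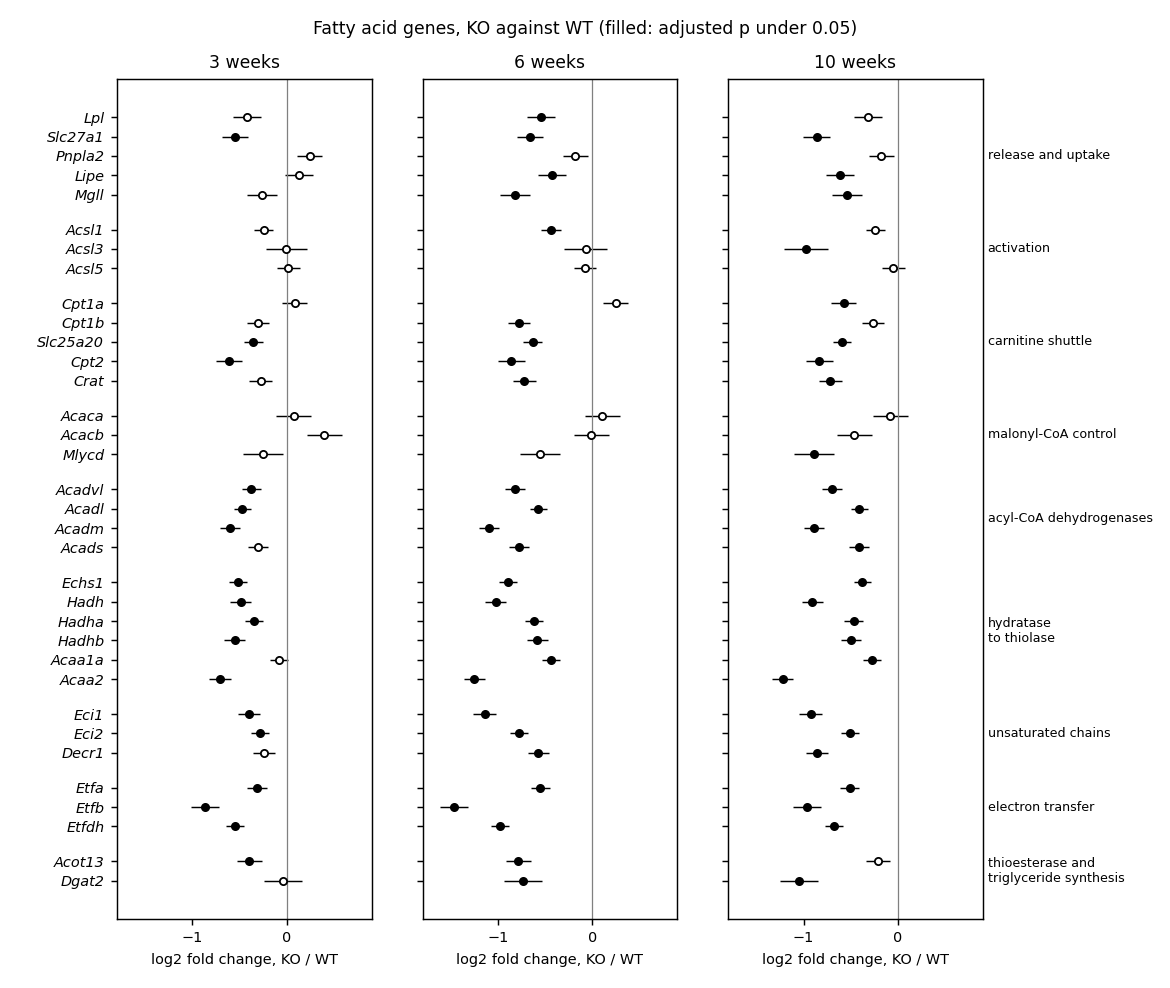
Log2 fold changes of the 34 genes in KO against WT at 3, 6 and 10 weeks, with bars of 1 SE, 3 libraries a group, grouped by step of the pathway. Filled points passed an adjusted p under 0.05: 17, 27 and 26 genes at the 3 ages, all to the left of 0.

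The 16 members that fell at all 3 ages were Slc27a1, Slc25a20, Cpt2, Acadvl, Acadl, Acadm, Echs1, Hadh, Hadha, Hadhb, Acaa2, Eci1, Eci2, Etfa, Etfb and Etfdh. Over all genes tested, 468 (2.97%) did so. The 16 hold every member of the electron transfer step, 3 of the 4 acyl-CoA dehydrogenases and 5 of the 6 genes from hydratase to thiolase. Acsl5, Pnpla2, Acaca and Acacb passed at no age. The fitted fall was deepest at 6 weeks for 25 members and at 10 weeks for 9.

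Promoter sequence was available for 27 of the 34 genes in RefSeq (GRCm38.p6), as the 300 bases from 250 before to 50 after a gene's start. The 4 windows below are shown because they belong to genes the results turn on: Hadhb, which starts 86 bases from Hadha on the other strand; Acadm and Etfb, among the deepest falls; and Cpt1a, the gene whose genotype difference changed most clearly between ages. Capitals mark AGGTCA, the basic site of nuclear receptors, the NRF1-type site, GCGCA and GCGC with 1 base between, and the ETS-type CCGGAAG, each read on either strand. The Hadhb window lies at chr5:30155003-30155302 (plus strand), Acadm at chr3:153944594-153944893 (minus), Etfb at chr7:43443822-43444121 (plus) and Cpt1a at chr19:3323051-3323350 (plus). GENCODE M21 starts Cpt1a at 3322334, before that window, so the Cpt1a window belongs to a different, RefSeq start.
Hadhb: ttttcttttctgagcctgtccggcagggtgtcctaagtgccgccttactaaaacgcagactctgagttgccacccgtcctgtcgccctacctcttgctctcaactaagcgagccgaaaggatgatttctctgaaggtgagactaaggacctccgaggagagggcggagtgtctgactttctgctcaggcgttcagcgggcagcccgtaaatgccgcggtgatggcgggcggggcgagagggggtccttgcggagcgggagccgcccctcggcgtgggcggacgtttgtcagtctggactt
Acadm: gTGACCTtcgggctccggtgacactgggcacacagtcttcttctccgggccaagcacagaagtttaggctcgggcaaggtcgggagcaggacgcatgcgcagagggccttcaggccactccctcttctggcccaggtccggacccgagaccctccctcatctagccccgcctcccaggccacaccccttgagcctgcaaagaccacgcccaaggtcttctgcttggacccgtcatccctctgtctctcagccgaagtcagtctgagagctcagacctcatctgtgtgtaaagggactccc
Etfb: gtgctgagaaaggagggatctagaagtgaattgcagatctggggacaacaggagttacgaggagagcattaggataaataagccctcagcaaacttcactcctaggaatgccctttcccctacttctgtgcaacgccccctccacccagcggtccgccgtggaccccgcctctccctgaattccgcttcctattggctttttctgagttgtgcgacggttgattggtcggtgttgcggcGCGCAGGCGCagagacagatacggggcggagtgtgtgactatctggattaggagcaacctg
Cpt1a: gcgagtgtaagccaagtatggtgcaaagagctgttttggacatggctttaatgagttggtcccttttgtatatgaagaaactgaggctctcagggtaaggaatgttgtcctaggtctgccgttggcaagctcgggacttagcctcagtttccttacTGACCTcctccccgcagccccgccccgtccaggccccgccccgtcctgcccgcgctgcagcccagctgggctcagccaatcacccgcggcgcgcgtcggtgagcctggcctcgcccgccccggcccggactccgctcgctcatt
The Hadhb window held none of these motifs. AGGTCA was in 5 of the 27 windows (18.5%: Acacb, Acadm, Acadvl, Cpt1a and Echs1), beside 18.1% of the 27025 genes with a window. The longer AAGGTCA, which contains AGGTCA, was in 2 windows (7.41%, against 5.38%), and TCAAGGTCA, which contains both, in none (0.466% of genes). AGGTCA repeated with 1 base between was in none (0.0481% of genes). The NRF1-type site was in the windows of Etfb and Etfdh (7.41%, against 5.19%), and CCGGAAG in those of Cpt2, Lipe, Mlycd and Slc25a20 (14.8%, against 9.93%). The members' windows thus held AGGTCA about as often as windows of all genes, and a match of letters is not a binding site.

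Counts of genes that fell at each step, here and below, stand beside 6.68, 12.8 and 14.7% of all genes lower at 3, 6 and 10 weeks. The steps hold few genes and were not tested as sets. Release and uptake genes are the lipases and the transporter that supply fatty acids. Their summed level in KO was 77.7, 69.0 and 78.3% of WT at 3, 6 and 10 weeks, and 1, 4 and 3 of the 5 genes fell. Most of that sum was the lipoprotein lipase Lpl, with a mean of 2894 of 3550 CPM in WT at 3 weeks. Slc27a1 encodes FATP1, a fatty acid transport protein of the cell membrane. At 3 weeks, Slc27a1 was at 199, 183 and 221 CPM in WT and 176, 123 and 113 CPM in KO. At 6 weeks, Slc27a1 was at 255, 268 and 299 CPM in WT and 163, 176 and 181 CPM in KO. At 10 weeks, Slc27a1 was at 292, 306 and 260.5 CPM in WT and 158, 134 and 179.7 CPM in KO. All KO values were below all WT values at each age. The log2 fold changes at 3, 6 and 10 weeks were -0.55 (SE 0.14, adjusted p = 0.0094), -0.66 (SE 0.14, adjusted p = 0.0012) and -0.86 (SE 0.14, adjusted p = 7.4e-05).

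Lipe encodes hormone-sensitive lipase, which cuts diacylglycerol in stored fat. At 3 weeks, Lipe was at 41.7, 41.9 and 48.3 CPM in WT and 39.3, 59.9 and 44.8 CPM in KO, and the groups overlapped. At 6 weeks, Lipe was at 44.7, 50.9 and 47.1 CPM in WT and 30.8, 32.0 and 43.2 CPM in KO. At 10 weeks, Lipe was at 65.3, 60.5 and 55.1 CPM in WT and 45.1, 34.5 and 38.8 CPM in KO. At both later ages every KO value was below every WT value. The log2 fold changes were 0.13 (SE 0.15, adjusted p = 0.62), -0.43 (SE 0.15, adjusted p = 0.041) and -0.61 (SE 0.15, adjusted p = 0.0035), and the KO difference was 0.74 deeper at 10 than at 3 weeks (SE 0.21, adjusted p = 0.041). The 6-week call of Lipe was lost in 5 of 16 alternatives. The highest KO values of Lipe at 6 and 10 weeks were in the libraries with the highest Adipoq. At 3 weeks the highest KO value of Lipe, 59.9 CPM in replicate 2, came with Adipoq at only 0.112 CPM. A link between Lipe and Adipoq was not tested. Part of the exons of Lipe (15.6% of bases) lies under another gene of the annotation.

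The remaining supply genes were less uniform. Lpl, the lipoprotein lipase that frees fatty acids at the capillary wall, stood at 2625 to 3337 CPM in WT and 1692 to 2997 CPM in KO. It fell only at 6 weeks, by 0.55 (SE 0.15, adjusted p = 0.0097), with -0.42 at 3 weeks (adjusted p = 0.058) and -0.32 at 10 weeks (adjusted p = 0.12). The 6-week call was lost without KO at 6 weeks replicate 3 (adjusted p = 0.073). Without the 3 libraries rich in atrial transcripts, Lpl also passed at 3 weeks (-0.60, adjusted p = 0.0027) and at 10 weeks (-0.46, adjusted p = 0.0085). The libraries left out were chosen after seeing the data. They held the highest Lpl of the KO group at 3 weeks (2628 CPM) and at 10 weeks (2997 CPM). Leaving them out lowers the KO mean at those ages by itself, so these 2 calls are no separate support for a fall. Mgll, which cuts monoacylglycerol, fell at 6 weeks by 0.82 (adjusted p = 0.00066) and at 10 weeks by 0.54 (adjusted p = 0.013). Pnpla2, the adipose triglyceride lipase that starts the breakdown of stored fat, passed at no age, with log2 fold changes of 0.24, -0.18 and -0.18.

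Activation changed in few genes. The 3 acyl-CoA synthetases, which join a fatty acid to coenzyme A, summed to 84.9, 74.5 and 84.8% of WT in KO, and 0, 1 and 1 of them fell at the 3 ages. Nearly all of that sum was Acsl1, with a mean of 762 of 788 CPM in WT at 3 weeks. Acsl1, the main synthetase of the heart, fell at 6 weeks by 0.44 (SE 0.10, adjusted p = 0.0037), and was -0.25 and -0.24 at 3 and 10 weeks (adjusted p = 0.12 and 0.092). Acsl3, at 2.86 to 8.28 CPM over all libraries, fell at 10 weeks by 0.98 (SE 0.23, adjusted p = 0.0028). Acsl5 lay within -0.08 to 0.02 log2 units of WT at the 3 ages.

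The carnitine shuttle fell to 79.8, 62.4 and 63.9% of WT by summed level, with 2, 4 and 4 of its 5 genes called. Cpt2 encodes carnitine palmitoyltransferase II, which rebuilds acyl-CoA inside the mitochondrion. At 3 weeks, Cpt2 was at 163, 168 and 175 CPM in WT and 131, 82.7 and 117 CPM in KO. At 6 weeks, Cpt2 was at 203, 189 and 212 CPM in WT and 98.2, 112 and 122 CPM in KO. At 10 weeks, Cpt2 was at 204, 225 and 276 CPM in WT and 125, 122 and 148 CPM in KO. The highest KO library of any age (148 CPM) was below the lowest WT library (163 CPM). Fold changes on the log2 scale were -0.61 (SE 0.14, adjusted p = 0.005), -0.86 (SE 0.14, adjusted p = 0.00011) and -0.83 (SE 0.14, adjusted p = 0.00012).

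Slc25a20 encodes the carnitine-acylcarnitine translocase of the inner membrane. At 3 weeks, Slc25a20 was at 139, 154 and 145 CPM in WT and 115, 102 and 125 CPM in KO. At 6 weeks, Slc25a20 was at 198, 183 and 182 CPM in WT and 114, 122 and 128 CPM in KO. At 10 weeks, Slc25a20 was at 195, 203 and 227 CPM in WT and 126, 138 and 150.3 CPM in KO. KO was below WT in every library of its age, by -0.35 (SE 0.10, adjusted p = 0.02), -0.63 (SE 0.10, adjusted p = 7.5e-05) and -0.59 (SE 0.10, adjusted p = 0.00012) on the log2 scale. Crat, carnitine acetyltransferase, fell at 6 and 10 weeks by 0.72 and 0.72 (adjusted p = 0.00016 and 0.00014) and was -0.27 at 3 weeks (adjusted p = 0.14).

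Cpt1a and Cpt1b encode the liver and muscle forms of carnitine palmitoyltransferase I, the step at which malonyl-CoA limits entry of fat into the mitochondrion. At 3 weeks, Cpt1a was at 45.2, 48.9 and 58.8 CPM in WT and 64.2, 51.0 and 46.5 CPM in KO. At 6 weeks, Cpt1a was at 41.7, 48.9 and 47.8 CPM in WT and 46.7, 61.0 and 56.8 CPM in KO. At 10 weeks, Cpt1a was at 62.0, 62.9 and 61.5 CPM in WT and 46.6, 39.2 and 39.6 CPM in KO. The groups overlapped at the earlier ages and were apart at 10 weeks, with KO lower. Its log2 fold changes were 0.08 (SE 0.13, adjusted p = 0.73), 0.25 (SE 0.13, adjusted p = 0.18) and -0.57 (SE 0.13, adjusted p = 0.0021). The genotype difference at 10 weeks was 0.82 below that at 6 weeks (SE 0.19, adjusted p = 0.011) and 0.66 below that at 3 weeks (SE 0.19, adjusted p = 0.039). The first of these was called under all 22 alternatives.

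Cpt1b fell at 6 weeks by 0.77 (SE 0.12, adjusted p = 4.3e-05), with 142 to 152 CPM in WT and 79.2 to 93.8 CPM in KO, and was -0.30 and -0.26 at 3 and 10 weeks (adjusted p = 0.083 and 0.095). The KO difference of Cpt1b did not pass between any 2 ages (adjusted p = 0.15 at 6 against 3 weeks, 0.07 at 10 against 6 and 0.93 at 10 against 3). Cpt1b shares 81.4% of its exon bases with Chkb on the same strand, so its counts depend on how the counting treated overlapping genes, which no label states. The ratio of Cpt1a to Cpt1b, from RPKM (CPM divided by exon length in kilobases) within each library, was 0.374 ± 0.0294 (SD, n = 3) in WT and 0.498 ± 0.0941 in KO at 3 weeks. At 6 weeks the ratio was 0.247 ± 0.0162 in WT and 0.50 ± 0.0347 in KO. At 10 weeks it was 0.320 ± 0.0157 in WT and 0.259 ± 0.0333 in KO. KO was thus above WT at 6 weeks and below it at 10 weeks, with no overlap at either age, and the ratio was not tested.

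**Figure D2:**
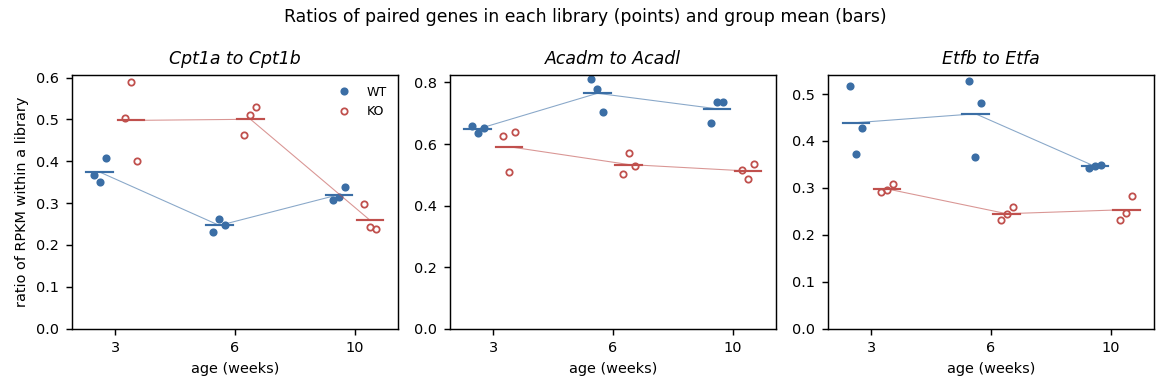
Ratio of RPKM of paired genes within each library (points) with the group mean (bars) against age in weeks, 3 libraries a group. The Cpt1a to Cpt1b ratio was 0.50 in KO and 0.247 in WT at 6 weeks and 0.259 and 0.320 at 10 weeks, while the Acadm to Acadl and Etfb to Etfa means were lower in KO at all 3 ages.

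Of the 3 genes of malonyl-CoA control, 0, 0 and 1 fell at 3, 6 and 10 weeks, and their summed level in KO was 119, 90.8 and 68.5% of WT. Acacb, the acetyl-CoA carboxylase at the mitochondrial surface, makes the malonyl-CoA that inhibits carnitine palmitoyltransferase I, and Mlycd, malonyl-CoA decarboxylase, removes it. Acacb was 0.40, -0.01 and -0.46 at 3, 6 and 10 weeks (adjusted p = 0.16, 0.97 and 0.069). Most of the summed level of the 3 genes was Acacb. At 3 weeks the sums overlapped, at 308, 405 and 450 CPM in WT and 615, 379 and 383 CPM in KO. Mlycd fell at 10 weeks by 0.89 (SE 0.21, adjusted p = 0.0045), with 157 to 191 CPM in WT and 81.6 to 119 CPM in KO. Acaca, the cytosolic carboxylase of fatty acid synthesis, was at 8.47 to 15.3 CPM in all libraries and passed at no age.

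The acyl-CoA dehydrogenases open each turn of the spiral and differ in the chain length they accept. Their summed level in KO was 71.8, 55.7 and 63.2% of WT, and 3, 4 and 4 of the 4 genes fell. Acadm encodes the medium-chain enzyme. At 3 weeks, Acadm was at 1189, 1236 and 1150.4 CPM in WT and 784, 661 and 909.9 CPM in KO. At 6 weeks, Acadm was at 1687, 1477 and 1492 CPM in WT and 729, 759 and 689.8 CPM in KO. At 10 weeks, Acadm was at 1487, 1575 and 1687 CPM in WT and 876, 852 and 835 CPM in KO. The highest KO library of any age (909.9 CPM) lay below the lowest WT library (1150.4 CPM). On the log2 scale KO differed from WT by -0.60 (SE 0.11, adjusted p = 0.00052), -1.10 (SE 0.11, adjusted p = 1.8e-07) and -0.89 (SE 0.11, adjusted p = 2e-06).

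Acadl encodes the long-chain enzyme and Acadvl the very-long-chain enzyme of the inner membrane. At 3 weeks, Acadl was at 924, 997 and 906 CPM in WT and 641, 666 and 730.0 CPM in KO. At 6 weeks, Acadl was at 1068, 971 and 1084 CPM in WT and 746, 681 and 670.2 CPM in KO. At 10 weeks, Acadl was at 1139.7, 1094 and 1173 CPM in WT and 871, 895 and 801 CPM in KO. Every KO library was below every WT library, and the fall was smaller than that of Acadm at each age, with log2 fold changes of -0.47 (SE 0.09, adjusted p = 0.0012), -0.57 (SE 0.09, adjusted p = 8.2e-05) and -0.41 (SE 0.09, adjusted p = 0.0018). The difference between the genes was not tested. The Acadm to Acadl ratio of RPKM was 0.648 ± 0.0119 (SD, n = 3) in WT and 0.591 ± 0.0719 in KO at 3 weeks, 0.765 ± 0.0536 and 0.533 ± 0.0354 at 6 weeks, and 0.714 ± 0.0396 and 0.512 ± 0.0234 at 10 weeks. The ratios did not overlap at 6 and 10 weeks.

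At 3 weeks, Acadvl was at 881, 961 and 1003 CPM in WT and 796, 619.9 and 778 CPM in KO. At 6 weeks, Acadvl was at 1195, 1066 and 1090.0 CPM in WT and 585, 658 and 656 CPM in KO. At 10 weeks, Acadvl was at 1183, 1306 and 1374 CPM in WT and 783, 809 and 788 CPM in KO. KO lay below WT at each age, by -0.37 (SE 0.10, adjusted p = 0.018), -0.82 (SE 0.10, adjusted p = 6.1e-06) and -0.70 (SE 0.10, adjusted p = 3.2e-05). Acadvl shares 42.9% of its exon bases with Dvl2 on the opposite strand, and Dvl2 averaged 33.8 CPM beside 917 CPM for Acadvl. Acads, the short-chain enzyme, fell at 6 weeks by 0.78 (adjusted p = 1.1e-05) and at 10 weeks by 0.41 (adjusted p = 0.0044), and was -0.30 at 3 weeks (adjusted p = 0.0519).

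**Figure D3:**
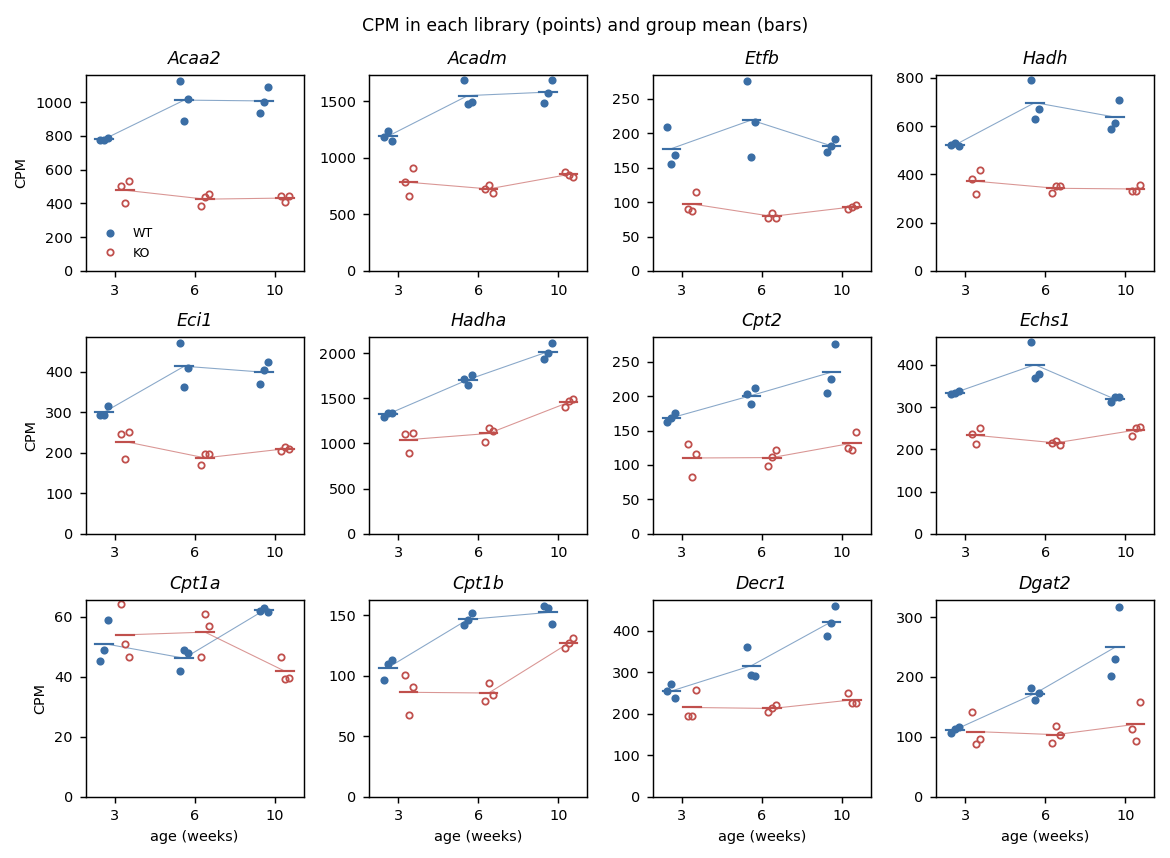
CPM of 12 genes in each library (points) with group means (bars) against age in weeks, 3 libraries a group, every vertical axis starting at 0. Acaa2, Acadm, Etfb, Hadh, Eci1, Hadha, Cpt2 and Echs1 have KO below WT at every age, while Cpt1a and Dgat2 overlap at 3 weeks and separate by 10 weeks.

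From hydratase to thiolase, the summed level in KO was 71.3, 57.9 and 64.7% of WT, and 5, 6 and 6 of 6 genes fell. Echs1 encodes the short-chain enoyl-CoA hydratase of the matrix. At 3 weeks, Echs1 was at 330.3, 334 and 338 CPM in WT and 236, 213 and 249.6 CPM in KO. At 6 weeks, Echs1 was at 453, 369.7 and 378 CPM in WT and 215, 220.1 and 210.4 CPM in KO. At 10 weeks, Echs1 was at 311, 323 and 323 CPM in WT and 232, 251 and 253 CPM in KO. KO lay between 210.4 and 253 CPM over all ages, and every WT library was above that. By the fit, KO differed by -0.52 (SE 0.09, adjusted p = 0.00058), -0.90 (SE 0.09, adjusted p = 4.2e-07) and -0.38 (SE 0.09, adjusted p = 0.0037) in log2 units. The KO difference at 10 weeks was smaller than at 6 weeks by 0.52 (SE 0.13, adjusted p = 0.023), and WT itself fell from 6 to 10 weeks by 0.33 (adjusted p = 0.031). These contrasts share libraries.

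Hadh encodes the hydroxyacyl-CoA dehydrogenase for short and medium chains. At 3 weeks, Hadh was at 520.0, 529 and 516 CPM in WT and 382, 317 and 416 CPM in KO. At 6 weeks, Hadh was at 790.0, 631 and 672 CPM in WT and 321, 353 and 353 CPM in KO. At 10 weeks, Hadh was at 590.0, 614 and 708 CPM in WT and 331, 330.3 and 357 CPM in KO. The highest KO library (416 CPM) was below the lowest WT library (516 CPM), with log2 fold changes of -0.49 (SE 0.11, adjusted p = 0.0041), -1.03 (SE 0.11, adjusted p = 6.4e-07) and -0.91 (SE 0.11, adjusted p = 2.3e-06).

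Hadha and Hadhb encode the alpha and beta subunits of the trifunctional protein, which runs hydratase, dehydrogenase and thiolase steps on long chains. The genes lie head to head on chromosome 5 (GRCm38), Hadha from 30118304 to 30155162 on the minus strand and Hadhb from 30155248 to 30184593 on the plus strand. At 3 weeks, Hadha was at 1295, 1337 and 1339 CPM in WT and 1106, 898 and 1121 CPM in KO. At 6 weeks, Hadha was at 1710.3, 1648 and 1759 CPM in WT and 1020.5, 1174 and 1136 CPM in KO. At 10 weeks, Hadha was at 1936, 1996 and 2114 CPM in WT and 1402, 1469 and 1495 CPM in KO. KO was lower in every library of its age, by -0.35 (SE 0.10, adjusted p = 0.019), -0.62 (SE 0.10, adjusted p = 7e-05) and -0.47 (SE 0.10, adjusted p = 0.0009). At 3 weeks, Hadhb was at 1004, 1002 and 852 CPM in WT and 591, 590.4 and 765 CPM in KO. At 6 weeks, Hadhb was at 1265, 1082 and 1097 CPM in WT and 746, 786 and 769 CPM in KO. At 10 weeks, Hadhb was at 1375, 1374 and 1469 CPM in WT and 979, 1042 and 961 CPM in KO. Its log2 fold changes were -0.55 (SE 0.11, adjusted p = 0.0013), -0.58 (SE 0.11, adjusted p = 0.00041) and -0.50 (SE 0.11, adjusted p = 0.0013), near those of Hadha at 6 and 10 weeks. The Hadhb to Hadha ratio of RPKM had group means between 0.827 and 0.953 over the 6 groups.

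Acaa2 encodes the mitochondrial thiolase and had the highest RPKM of the members in each WT group, with a mean of 515 RPKM in WT at 3 weeks and 315 RPKM in KO, where Acadl was higher (339 RPKM). At 3 weeks, Acaa2 was at 777, 777 and 787 CPM in WT and 501, 401 and 531 CPM in KO. At 6 weeks, Acaa2 was at 1126, 889.8 and 1019 CPM in WT and 383, 435 and 457 CPM in KO. At 10 weeks, Acaa2 was at 932, 999 and 1088 CPM in WT and 445, 407 and 442 CPM in KO. The KO libraries of all ages lay between 383 and 531 CPM, below every WT library. The log2 fold changes, -0.71 (SE 0.11, adjusted p = 0.00019), -1.25 (SE 0.11, adjusted p = 7.3e-08) and -1.22 (SE 0.11, adjusted p = 6.9e-08), included the deepest fall of any member at 10 weeks. Acaa1a, the peroxisomal thiolase, moved less: it fell at 6 weeks by 0.44 (adjusted p = 0.0017) and at 10 weeks by 0.27 (adjusted p = 0.037), and was -0.08 at 3 weeks (adjusted p = 0.62). Its reads may be split with the near-identical Acaa1b, and its 10-week call was lost in 10 of 16 alternatives.

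Enzymes for unsaturated chains move or reduce double bonds so that the spiral can go on. They summed to 80.3, 55.5 and 56.7% of WT in KO, and 2, 3 and 3 of the 3 genes fell. Eci1 encodes an enoyl-CoA isomerase of mitochondria. At 3 weeks, Eci1 was at 293, 293 and 316 CPM in WT and 246, 186 and 252 CPM in KO. At 6 weeks, Eci1 was at 470.4, 362 and 409 CPM in WT and 169, 196 and 198 CPM in KO. At 10 weeks, Eci1 was at 369, 405 and 424 CPM in WT and 206, 215 and 209.9 CPM in KO. KO was below WT in every library, by -0.40 (SE 0.12, adjusted p = 0.023), -1.14 (SE 0.12, adjusted p = 3.7e-07) and -0.93 (SE 0.12, adjusted p = 3.9e-06). Eci1 was the only member whose KO difference was deeper at 6 than at 3 weeks by the test of that difference, -0.74 (SE 0.16, adjusted p = 0.024), beside 1.10% of all genes.

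Eci2 encodes another enoyl-CoA isomerase, found in mitochondria and peroxisomes. At 3 weeks, Eci2 was at 144, 156 and 149 CPM in WT and 126, 113 and 131 CPM in KO. At 6 weeks, Eci2 was at 192, 157 and 167 CPM in WT and 103, 100 and 97.4 CPM in KO. At 10 weeks, Eci2 was at 151, 168 and 176 CPM in WT and 112, 114 and 121 CPM in KO. The groups did not overlap, and the log2 fold changes were -0.28 (SE 0.10, adjusted p = 0.0496), -0.78 (SE 0.10, adjusted p = 4.2e-06) and -0.51 (SE 0.10, adjusted p = 0.00035). The 3-week call lay at the threshold and was lost in 11 of 16 alternatives.

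Decr1 encodes the mitochondrial dienoyl-CoA reductase. At 3 weeks, Decr1 was at 255, 271 and 237 CPM in WT and 194, 194 and 256 CPM in KO, and the groups overlapped. At 6 weeks, Decr1 was at 361, 294 and 291 CPM in WT and 203, 214 and 220.3 CPM in KO. At 10 weeks, Decr1 was at 386, 418 and 460.2 CPM in WT and 249, 225 and 225 CPM in KO. The groups were apart at both later ages, WT having risen from 6 to 10 weeks by 0.42 (adjusted p = 0.028). KO minus WT in log2 units was -0.24 (SE 0.12, adjusted p = 0.17), -0.57 (SE 0.12, adjusted p = 0.00091) and -0.85 (SE 0.12, adjusted p = 1e-05), and the KO difference was 0.61 deeper at 10 than at 3 weeks (SE 0.16, adjusted p = 0.03).

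Electron transfer genes fell together, all 3 at each age, to 72.5, 57.1 and 65.1% of WT by summed level. Etfa and Etfb encode the subunits of the electron transfer flavoprotein, and Etfdh the enzyme that hands its electrons to ubiquinone. At 3 weeks, Etfb was at 209, 156 and 168 CPM in WT and 89.8, 87.6 and 115 CPM in KO. At 6 weeks, Etfb was at 276, 166 and 217 CPM in WT and 76.4, 84.0 and 77.6 CPM in KO. At 10 weeks, Etfb was at 172, 182 and 191 CPM in WT and 90.3, 93.6 and 95.2 CPM in KO. Every KO library (76.4 to 115 CPM) was below every WT library (156 to 276 CPM). The log2 fold changes, -0.87 (SE 0.15, adjusted p = 0.00032), -1.47 (SE 0.15, adjusted p = 3.1e-07) and -0.97 (SE 0.15, adjusted p = 3.8e-05), were the deepest of the 34 at 3 and 6 weeks. Etfb shares 53.0% of its exon bases with the predicted gene Gm45233 on the same strand, which averaged 0.438 CPM. Counts and RPKM of Etfb thus depend, as for Cpt1b, on how the counting treated overlapping genes, which no label states.

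At 3 weeks, Etfa was at 639, 659 and 619 CPM in WT and 485, 469 and 587 CPM in KO. At 6 weeks, Etfa was at 824, 713 and 711 CPM in WT and 519.9, 542 and 472 CPM in KO. At 10 weeks, Etfa was at 794, 829 and 864 CPM in WT and 615, 598 and 531 CPM in KO. Its fall was smaller than that of Etfb, -0.31 (SE 0.10, adjusted p = 0.042), -0.55 (SE 0.10, adjusted p = 0.00043) and -0.51 (SE 0.10, adjusted p = 0.00069), and the 3-week call was lost in 8 of 16 alternatives. The Etfb to Etfa ratio of RPKM was 0.439 ± 0.0729 (SD, n = 3) in WT and 0.298 ± 0.0084 in KO at 3 weeks, 0.458 ± 0.0825 and 0.245 ± 0.0137 at 6 weeks, and 0.346 ± 0.00379 and 0.254 ± 0.0264 at 10 weeks. KO ratios lay below WT ratios at each age, with no test of the ratio. At 3 weeks, Etfdh was at 473, 488 and 437 CPM in WT and 334, 279 and 344 CPM in KO. At 6 weeks, Etfdh was at 633, 539 and 571 CPM in WT and 281, 302 and 301 CPM in KO. At 10 weeks, Etfdh was at 630.1, 599 and 668 CPM in WT and 420.2, 385 and 381 CPM in KO. KO was below WT throughout, by -0.55 (SE 0.10, adjusted p = 0.00063), -0.98 (SE 0.10, adjusted p = 3e-07) and -0.68 (SE 0.10, adjusted p = 2.2e-05).

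Acot13, a thioesterase that frees fatty acids from coenzyme A, and Dgat2, which makes triglyceride, close the list. Acot13 fell at 3 weeks by 0.40 (adjusted p = 0.042; lost in 6 of 16 alternatives) and at 6 weeks by 0.79 (adjusted p = 0.00012), and was -0.21 at 10 weeks (adjusted p = 0.24). At 3 weeks, Dgat2 was at 106, 112 and 116 CPM in WT and 141, 87.5 and 96.8 CPM in KO, and the groups overlapped. At 6 weeks, Dgat2 was at 181, 162 and 174 CPM in WT and 88.8, 119 and 103 CPM in KO. At 10 weeks, Dgat2 was at 202, 229 and 317 CPM in WT and 112, 92.2 and 158 CPM in KO. KO was below WT at both later ages, although WT was spread widely at 10 weeks. The log2 fold changes were -0.04 (SE 0.20, adjusted p = 0.93), -0.73 (SE 0.20, adjusted p = 0.013) and -1.05 (SE 0.20, adjusted p = 0.00081), and the KO difference was 1.01 deeper at 10 than at 3 weeks (SE 0.28, adjusted p = 0.0468). The 6-week call of Dgat2 was lost in 2 of 16 alternatives.

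Across the 34 genes, members with more RPKM in WT tended to have the larger falls. Spearman's rho between level and log2 fold change was -0.628, -0.518 and -0.209 at 3, 6 and 10 weeks. These values are across genes that share the same libraries, and the WT level enters both axes, so they describe the list and carry no test.

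The change with age was followed within each genotype. From 3 to 6 weeks in WT, 8 members rose and none fell (2.94% of all genes rose, 2.24% fell): Cpt1b, Slc25a20, Acadm, Acads, Hadh, Hadha, Eci1 and Acot13. Acads had the smallest adjusted p among them, with 179.8, 176 and 195 CPM at 3 weeks and 291, 235 and 265 CPM at 6 weeks, a log2 change of 0.52 (SE 0.10, adjusted p = 0.0059). In KO over the same weeks Mgll and Eci2 fell and none rose (6.25% of all genes fell, 5.34% rose), Mgll from 189, 138 and 178 CPM to 68.3, 105 and 122 CPM, by 0.77 (SE 0.16, adjusted p = 0.0031). The median log2 change of the members was 0.31 in WT and -0.07 in KO. The WT count dropped to 1, 1, 0 and 1 without WT at 3 weeks replicate 1 or 2, or WT at 6 weeks replicate 1 or 3.

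From 6 to 10 weeks 3 members rose and 2 fell in WT, and 8 rose in KO, while at an unadjusted p under 0.05 the rises numbered 9 and 11. The share of all genes at that unadjusted level was not counted. The median log2 change of the members was 0.15 in WT and 0.19 in KO, and the genotype effect became higher over these weeks in 1 member by the test of that difference (Echs1). In WT, Cpt1a, Acacb and Decr1 rose and Echs1 and Acot13 fell (3.64% of all genes rose, 5.12% fell). Acacb in WT went from 285, 389.8 and 399 CPM to 521, 567 and 565 CPM, a log2 change of 0.62 (SE 0.18, adjusted p = 0.043). Acot13 in WT went from 301, 192 and 235 CPM to 158, 161 and 155 CPM, a log2 change of -0.62 (SE 0.13, adjusted p = 0.0046). In KO, Mgll, Acsl1, Cpt1b, Acadvl, Acadl, Hadha, Hadhb and Etfdh rose and none fell (6.52% of all genes rose, 6.14% fell). Cpt1b in KO went from 79.2, 93.8 and 84.2 CPM to 123, 127 and 131 CPM, a log2 change of 0.57 (SE 0.12, adjusted p = 0.003). The WT count was 1 or 2 without any 1 library of either age, and the KO count was 4, 3, 4 and 4 without KO at 6 weeks replicates 1, 2 and 3 and KO at 10 weeks replicate 2.

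**Figure D4:**
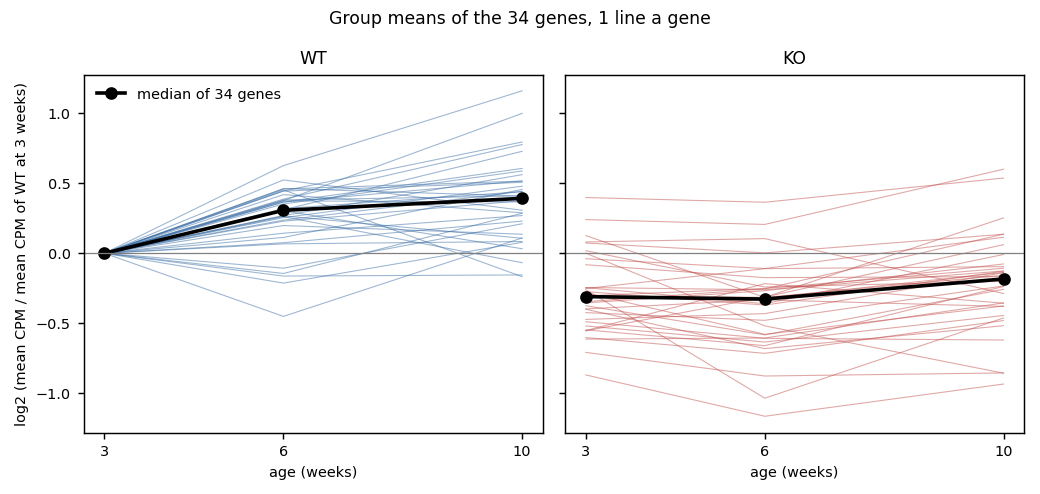
Log2 ratio of each gene's group mean CPM to its WT mean at 3 weeks against age in weeks, 1 line a gene, with the median of the 34 genes in black. The WT median was 0.31 at 6 weeks and 0.39 at 10 weeks, with 29 and 31 genes above 0, and the KO median was -0.31, -0.33 and -0.18 at 3, 6 and 10 weeks.

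The KO difference itself was compared between ages. At 6 against 3 weeks it was more negative in 32 of the 34 genes, with a median of -0.38, beside -0.02 over all genes. Only 1 passed (Eci1, beside 1.10% of all genes lower and 0.494% higher). While 18 had an unadjusted p under 0.05, the share of all genes at that level was not counted. At 10 against 6 weeks the KO difference became more negative for Cpt1a and less negative for Echs1, 1 gene each (2.63% of all genes lower, 3.12% higher). At 10 against 3 weeks it became more negative for 4 members (11.8%, beside 2.94% of all genes): Lipe, Cpt1a, Decr1 and Dgat2. None became less negative (2.82% of all genes did). The last count was 0 without KO at 10 weeks replicate 2, WT at 10 weeks replicate 2 or 3, or WT at 3 weeks replicate 1, was 1 or 2 without WT at 3 weeks replicate 2, WT at 10 weeks replicate 1 or KO at 3 weeks replicate 1, and was 8 without KO at 3 weeks replicate 2. The 6 against 3 weeks count was 0 without WT at 3 weeks replicate 1 or 2, WT at 6 weeks replicate 1 or 3, KO at 3 weeks replicate 3 or KO at 6 weeks replicate 1, and 8 and 4 without KO at 3 weeks replicate 2 and WT at 6 weeks replicate 2. These tests share libraries with one another and with the comparisons at each age.

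The 3-week count against WT rested in part on 1 library: without KO at 3 weeks replicate 2, which had the lowest summed level of the members (10113 CPM), 9 of the 17 passed. Calls over all genes at 3 weeks also moved, from 1309 to 2542 with 1 library left out. The full fit called 1054 lower and 1365 higher. Whether the loss is particular to the members was not tested. Of the 17, 9 kept their call in every one of 16 alternatives (Cpt2, Acadl, Acadm, Echs1, Hadh, Hadhb, Acaa2, Etfb and Etfdh). At 6 and 10 weeks 24 of 27 and 23 of 26 did so, the others being Lpl, Lipe and Dgat2 at 6 weeks and Mgll, Acads and Acaa1a at 10 weeks.

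Other genes of fatty acid handling, 69 of 70 listed being tested, fell in 14, 29 and 21 cases and rose in 2, 5 and 4 at 3, 6 and 10 weeks, with medians of -0.17, -0.31 and -0.21. Over all genes tested, 6.68, 12.8 and 14.7% fell and 8.65, 11.0 and 14.6% rose. Those of the list with the smallest p at 6 weeks are named. Mcee, methylmalonyl-CoA epimerase, which handles the end of odd chains, was -1.15 (SE 0.14, adjusted p = 3.4e-06). Ech1, a dienoyl-CoA isomerase, was -0.93 (SE 0.13, adjusted p = 1.1e-05), and Agpat3, an acyltransferase of lipid synthesis, -0.72 (SE 0.10, adjusted p = 1.5e-05). Gpihbp1, the capillary anchor of Lpl, was at 95.0, 78.0 and 85.7 CPM in WT and 37.1, 43.4 and 43.6 CPM in KO at 6 weeks, -1.06 (SE 0.14, adjusted p = 1.1e-05). It was -0.05 at 3 weeks and 0.02 at 10 weeks, and its KO difference at 6 weeks was below that at 3 weeks (-1.01, adjusted p = 0.011) and the one at 10 weeks lay above that at 6 weeks (1.07, adjusted p = 0.0026). The differences between ages of Lpl itself did not pass (adjusted p = 0.84 and 0.58).

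Among the genes of that list that rose at 6 weeks, Bdh1, the ketone enzyme beta-hydroxybutyrate dehydrogenase, had the smallest p. At 3 weeks, Bdh1 was at 7.67, 16.5 and 12.4 CPM in WT and 11.6, 9.47 and 21.9 CPM in KO, and the groups overlapped. At 6 weeks, Bdh1 was at 90.9, 59.9 and 56.2 CPM in WT and 215, 198 and 233 CPM in KO. At 10 weeks, Bdh1 was at 102, 83.8 and 56.2 CPM in WT and 364, 425 and 483 CPM in KO. KO was above WT in every library at both later ages, by 1.64 (SE 0.32, adjusted p = 0.0017) and 2.39 (SE 0.33, adjusted p = 8e-05). Slc27a6, a fatty acid transport protein, and Gpam, the acyltransferase that starts glycerolipid synthesis, rose at 6 weeks by 2.63 (SE 0.72, adjusted p = 0.01) and 0.50 (SE 0.14, adjusted p = 0.013). Slc27a6 had very few counts, at 0.165, 0.171 and 0.315 CPM in WT and 1.38, 1.10 and 1.61 CPM in KO at 6 weeks.

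Of 22 regulators of fatty acid genes, 1, 6 and 4 fell and 6, 4 and 2 rose at 3, 6 and 10 weeks. Over all genes tested, 6.68, 12.8 and 14.7% fell and 8.65, 11.0 and 14.6% rose at those ages, and the regulators were not tested as a set. Ppargc1a, the coactivator PGC-1 alpha, was at 64.4, 80.5 and 55.9 CPM in WT and 157, 226 and 128 CPM in KO at 3 weeks and 69.5, 67.4 and 60.8 CPM in WT and 50.3, 45.3 and 36.5 CPM in KO at 6 weeks, a rise of 1.35 (adjusted p = 6.5e-05) and then a fall of 0.58 (adjusted p = 0.028). At 10 weeks, Ppargc1a was at 75.4, 64.2 and 61.9 CPM in WT and 64.2, 57.7 and 45.5 CPM in KO, and the groups overlapped. Rxrg, a retinoid X receptor, fell at 6 and 10 weeks by 1.0 and 1.32 (adjusted p = 0.00019 and 8.2e-06).

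Markers of other cell types also differed between the genotypes. Their counts below stand beside 6.68, 12.8 and 14.7% of all genes lower and 8.65, 11.0 and 14.6% higher at 3, 6 and 10 weeks. Mural markers, 7 genes of pericytes and smooth muscle, summed to 1534 to 1649 CPM in WT and 886 to 1197 CPM in KO at 3 weeks, 1066 to 1135 and 658 to 807 at 6 weeks, and 1164 to 1535 and 615 to 743 at 10 weeks, with no overlap at any age. At the 3 ages 3, 3 and 4 of the 7 fell, among them Acta2, smooth muscle actin, at -0.94, -2.23 and -2.39 (adjusted p = 0.012, 5.7e-06 and 2.1e-06), while Cspg4, a pericyte proteoglycan, rose at each. The summed level of 9 endothelial markers, Gpihbp1 and Fabp4 among them, was 1422 to 1623 CPM in WT and 1131 to 1504 CPM in KO at 3 weeks, 1387 to 1440 and 926 to 1119 at 6 weeks, and 1373 to 1710.4 and 1131 to 1328 at 10 weeks, and 0, 3 and 3 fell. Fabp4, a fatty acid binding protein also counted with the other fatty acid genes, is a large part of that sum. It stood at 366 to 470 CPM in WT and 222 to 259.5 CPM in KO at 6 weeks. Macrophage markers, 7 genes, summed to 280.4 to 333 CPM in WT and 244 to 248 CPM in KO at 3 weeks, 251 to 321 and 187 to 234 at 6 weeks, and 204 to 245 and 149 to 196 at 10 weeks, and 1, 2 and 3 fell. Fibroblast markers, 8 genes, summed to 1905 to 2092 CPM in WT and 2466 to 2922 CPM in KO at 6 weeks, where 5 rose and 1 fell, and to 1771 to 1992 and 2111 to 2384 at 10 weeks, where 2 rose and 1 fell. At 3 weeks their sums overlapped, and 2 rose and 3 fell. Epicardial markers, 5 genes, were low, at 8.37 to 15.01 CPM in WT and 26.8 to 68.5 CPM in KO at 10 weeks, where 4 rose, and 0 passed at the earlier ages. Their part in the members' differences was not tested.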

How the data were processed

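The authors deposited 1 table of unnormalized counts by Ensembl gene for each library. The tools named in the submitters' processing notes are Trimmomatic 0.36, STAR 2.5.2b and featureCounts (Subread 1.5.2), with the GRCm38 build. Strandedness, gene annotation and handling of multimapping reads are not given in the sources used here. Per the labels' protocols, RNA came from frozen tissue. GENCODE M21 gave a symbol to 49056 of the 49315 identifiers. From the counts, genes were kept with filterByExpr (minimum count 10, minimum total 15; 15778 genes), scaled by TMM and fitted in 1 robust quasi-likelihood model over all 18 libraries with edgeR 4.0.16 in R 4.3.3. The 10 contrasts were KO against WT at 3 ages, the difference of that effect between ages, and changes with age within a genotype. Genes were called at an adjusted p under 0.05. The SE is the size of the log2 fold change over the square root of F. RPKM is CPM over exon length. Libraries of a group differed beyond counting noise, with chi-squared per degree of freedom of 5.41 to 45.3.

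Alternatives were RLE and upper quartile scaling, mitochondrially encoded genes left out, other low-count filters, DESeq2 1.42.0, limma 3.58.1 voom, only the compared groups, the replicate block, and each library left out; leaving out the 3 libraries rich in atrial transcripts was chosen after seeing the data. The steps were tested on simulated data. The members, gene lists and tests were chosen with earlier results of these data known. Values in every library are given for members called at all 3 ages, higher in KO at any age, or in a difference between ages, and for up to 4 other genes a direction by smallest p at 6 weeks; values of other genes named were picked after being seen. A gene that this rule names is not reported here. Promoters and motif shares are from RefSeq windows.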

Additional observations from a re-analysis of the deposited data

Results flagged for a closer look

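In 7 results the KO difference from WT changed between ages by the interaction test of edgeR, 3 libraries a group. At 6 against 3 weeks it was lower in 2.94% of members, beside 1.10% of all genes (0.494% higher). At 10 against 6 weeks it was lower in 2.94% and higher in 2.94% of members, beside 2.63 and 3.12% of all genes. At 10 against 3 weeks it was lower in 11.8% of members, beside 2.94% of all genes (2.82% higher). Cpt1a at 10 against 6 weeks was -0.823, and at 10 against 3 weeks -0.656, with KO below WT at 10 weeks. Echs1 at 10 against 6 weeks was 0.518, the loss in KO being smaller at 10 weeks. Eci1 at 6 against 3 weeks was -0.743. At 10 against 3 weeks Lipe was -0.739, Decr1 -0.61 and Dgat2 -1.01, each with overlapping groups at 3 weeks and KO below WT at 10 weeks. Cpt1a at 10 against 6 weeks was called in all 22 alternatives, and the others lost their call in 6 to 12 of 22.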

How the results depend on the processing

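The members called against WT numbered 9 to 18 at 3 weeks, 25 to 26 at 6 weeks and 24 to 27 at 10 weeks when 1 library was left out, and 11 at 3 weeks with only the groups compared in the fit. At 6 and 10 weeks every alternative stayed within 1.5 times the reported counts of 27 and 26. The other counts moved more.

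With 1 library left out, the genotype effect at 6 against 3 weeks gave 0 to 8 calls, at 10 against 6 weeks 1 to 4, and at 10 against 3 weeks 0 to 8. The age changes then gave 0 to 6 calls for WT from 3 to 6 weeks, 1 to 2 for WT from 6 to 10 weeks, 1 to 4 for KO from 3 to 6 weeks and 3 to 8 for KO from 6 to 10 weeks. DESeq2 gave 7, 4 and 13 calls for the effect at 6 against 3 weeks, at 10 against 6 weeks and for WT from 3 to 6 weeks. Without a low-count filter the effect at 6 against 3 weeks had 6 calls, at 10 against 3 weeks 8, and WT from 3 to 6 weeks 13. RLE size factors gave 1 call at 10 against 3 weeks and 1 for KO from 3 to 6 weeks, and the filter of 10 counts in 3 libraries 1 for KO from 3 to 6 weeks. Upper quartile scaling gave 5 for WT from 3 to 6 weeks, 1 for KO from 3 to 6 weeks and 5 for KO from 6 to 10 weeks. With only the groups compared, the counts were 0 at 10 against 3 weeks, 10 for WT from 6 to 10 weeks and 0 for KO from 3 to 6 weeks. Without the 3 libraries rich in atrial transcripts, chosen after seeing the data, they were 0 at 6 against 3 weeks, 2 at 10 against 3 weeks and 4 for KO from 6 to 10 weeks. The cause of these shifts was not tested.

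Replicate numbers are shared between groups. Their 45 same-number pairs had correlations of deviations from -0.22 to 0.112 (median 0.00793, other pairs -0.00609), and 4 of 18 libraries correlated best with their own number, so the numbers were not taken to pair libraries. With the replicate block, 3 calls were made for WT from 6 to 10 weeks and 1 for KO from 3 to 6 weeks, and no other count moved by over 1.5 times.

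Signs turned only for members with no call at that age. Outside the leave-one-out fits, Acsl3 at 3 weeks was 0.0295 with the replicate block, Acsl5 at 3 weeks -0.00185 with only the groups compared and -0.0352 with upper quartile scaling, and Acacb at 6 weeks 0.00316 with limma voom. Without the atrial-rich libraries Dgat2 at 3 weeks was 0.0317, Acaca at 6 weeks -0.0536 and Acsl3 at 6 weeks 0.0328. Leaving out 1 library gave, at 3 weeks, -0.00947 to 0.16 for Acaca, -0.111 to 0.182 for Acsl3, -0.0521 to 0.0735 for Acsl5, -0.063 to 0.197 for Cpt1a, -0.274 to 0.0971 for Dgat2 and -0.0626 to 0.253 for Lipe. At 6 weeks it gave -0.0592 to 0.232 for Acaca, -0.146 to 0.0831 for Acacb and -0.23 to 0.0556 for Acsl3, and at 10 weeks -0.329 to 0.0656 for Acaca and -0.146 to 0.0665 for Acsl5. The alternatives lost 8 of the 17 calls at 3 weeks at least once, 3 of 27 at 6 weeks and 3 of 26 at 10 weeks. Acsl3, with the fewest counts (49 in its lowest library), had an SE of 0.22 to 0.23 against WT, and Acadm, with many more, 0.11.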

Other observations

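Other genes of fatty acid and ketone handling that were not among the 34, picked here after their values were seen, had patterns of their own. Plin5 encodes a coat protein of lipid droplets in oxidative muscle. At 3 weeks, Plin5 was at 117, 111 and 136 CPM in WT and 167, 89.8 and 103 CPM in KO, and the groups overlapped. At 6 weeks, Plin5 was at 180.0, 145 and 169 CPM in WT and 60.4, 74.4 and 68.8 CPM in KO. At 10 weeks, Plin5 was at 202, 194 and 248 CPM in WT and 100.5, 92.5 and 112 CPM in KO. KO was below WT in every library at both later ages, by 1.28 (adjusted p = 2.8e-05) and 1.08 (adjusted p = 0.00013). Its KO difference at 6 weeks lay 1.26 below that at 3 weeks (SE 0.25, adjusted p = 0.014).

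Slc22a5 encodes OCTN2, which imports carnitine. It was -0.17 and -0.25 at 3 and 6 weeks (adjusted p = 0.47 and 0.23) and fell at 10 weeks by 0.97 (SE 0.15, adjusted p = 3.2e-05), and the difference at 10 against 6 weeks was -0.72 (adjusted p = 0.041). Acsl6, an acyl-CoA synthetase outside the list, fell at all 3 ages by 1.85, 2.75 and 3.21 (adjusted p = 0.0071, 6.5e-05 and 7.4e-06). Its level was low, at 2.41 to 18.1 CPM in WT and 0.224 to 2.17 CPM in KO, beside 546 to 975 CPM for Acsl1 over all libraries. Oxct1, the enzyme that lets mitochondria use ketone bodies, fell at 3 and 6 weeks by 0.40 and 0.50 (adjusted p = 0.012 and 0.0012) and was 0.12 at 10 weeks (adjusted p = 0.42). Its KO difference at 10 weeks lay above that at 6 weeks, by 0.63 (SE 0.15, adjusted p = 0.016).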
